A study of Mus musculus with 4 samples.

Results

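The enteroendocrine lineage transcription factors described here are 9 genes: Neurog3, Neurod1, Insm1, Isl1, Pax4, Pax6, Nkx2-2, Rfx6 and St18. They were chosen by name, as factors known to act in hormone-producing cells of the gut, and are 9 of the 31054 features listed in each of 4 count matrices. The study measured RNA in single cells sorted from the gut epithelium of mice carrying a Bmi1-GFP reporter, in which GFP stands under the Bmi1 locus, and according to the series' design the sorted cells were those that express Bmi1. All 4 groups share this genotype and have 1 library each. A pair of them are fetal stages, at 12.5 and 17.5 days of gestation (E12.5 and E17.5), and the others are adults without and with irradiation. The E12.5 cells came from whole dissected intestine and the later ones from small intestine. The labels used here do not give the irradiation dose, the time after irradiation, the number or sex of the animals, or the sorting gates. With 1 library a group there is no replicate check and no test between groups, and every interval is an exact 95% interval that covers counting error only.

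Enteroendocrine cells are rare epithelial cells that release peptide hormones or serotonin. They arise from crypt progenitors in which Notch signalling is low and the basic helix-loop-helix factor Neurog3 is switched on for a short time. Neurog3 activates the next tier, among them Neurod1, Insm1, Pax4 and Nkx2-2, and a later tier that includes Isl1, Pax6 and Rfx6 helps set which hormone is made. Most of these factors also act in the pancreatic islet, where they specify insulin, glucagon and other hormone cells.

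Neurog3 (ENSMUSG00000044312) lies at chr10:62133090-62134763 on the plus strand of GRCm38, and Rfx6 (ENSMUSG00000019900) lies on the same chromosome and strand at chr10:51677756-51730432. Chromosome 2 carries 4 of the genes: Neurod1 (ENSMUSG00000034701, chr2:79452521-79456751, minus strand), Pax6 (ENSMUSG00000027168, chr2:105668900-105697364, plus strand), Insm1 (ENSMUSG00000068154, chr2:146221921-146225020, plus strand) and Nkx2-2 (ENSMUSG00000027434, chr2:147177546-147194243, minus strand). Isl1 (ENSMUSG00000042258) is at chr13:116298281-116309689 on the minus strand, Pax4 (ENSMUSG00000029706) at chr6:28442334-28449353 on the minus strand and St18 (ENSMUSG00000033740) at chr1:6487231-6860940 on the plus strand. Neurog3, Neurod1, Pax6 and Nkx2-2 overlap other annotated genes that are also listed in the matrices. The strand setting of the counting is not given in the sources used here, so reads from overlapping genes cannot be told apart with certainty. Pax6os1, the antisense partner of Pax6, held between 1 and 519 UMIs (unique molecular identifiers, the tags by which copies of a captured molecule are counted once) a library. Cerkl, which overlaps Neurod1 on the same strand, held between 4 and 1144. Fam241b, which overlaps Neurog3 on the other strand, held between 675 and 2464, more than Neurog3 itself in each library.

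Basic helix-loop-helix factors such as Neurog3 and Neurod1 bind the E-box CANNTG, so the windows of 250 bases before the start of Neurog3, Neurod1 and Rfx6 are shown with this motif in capitals. They are the trigger of the lineage, a known target of it, and a later factor whose level set the Gip cells apart in the values given further on. The sequences are from RefSeq on GRCm38.p6, written 5′ to 3′ on the strand of the gene: chr10:62132840-62133089 (plus) for Neurog3, chr2:79456637-79456886 (minus) for Neurod1 and chr10:51685268-51685517 (plus) for Rfx6. The RefSeq starts of Rfx6 and Neurod1 differ from the gene starts given above, so the Rfx6 window lies inside the gene as printed there and the Neurod1 window partly inside it.
Neurog3: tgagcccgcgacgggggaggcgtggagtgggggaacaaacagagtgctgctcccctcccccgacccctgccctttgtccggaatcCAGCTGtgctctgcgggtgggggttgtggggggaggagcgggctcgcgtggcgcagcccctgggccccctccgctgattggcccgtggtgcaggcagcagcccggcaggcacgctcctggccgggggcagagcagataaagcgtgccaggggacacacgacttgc
Neurod1: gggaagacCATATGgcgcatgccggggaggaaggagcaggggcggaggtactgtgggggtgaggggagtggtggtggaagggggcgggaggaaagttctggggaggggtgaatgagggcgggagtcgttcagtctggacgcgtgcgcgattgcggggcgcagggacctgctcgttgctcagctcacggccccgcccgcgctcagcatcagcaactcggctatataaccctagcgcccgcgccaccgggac
Rfx6: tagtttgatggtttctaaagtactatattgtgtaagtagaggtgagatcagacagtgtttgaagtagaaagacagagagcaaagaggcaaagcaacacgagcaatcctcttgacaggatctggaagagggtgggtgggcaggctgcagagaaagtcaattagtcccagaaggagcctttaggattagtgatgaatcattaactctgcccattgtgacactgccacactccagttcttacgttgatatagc
The Neurog3 window held 1 match, CAGCTG, the Neurod1 window 1, CATATG, and the Rfx6 window 0. The motif reads the same way on both strands, so each match counts once. Of the other factors with a RefSeq window, Isl1 held 1 match, Nkx2-2 held 3 and the pair of Pax6 windows held 0 and 1. Of 32851 promoter windows of this length, 66.2% held at least 1 match and 12.2% at least 3, so a single match sets none of these windows apart. Windows for Insm1, Pax4 and St18 are not shown here. A match describes letters only.

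A cell was kept where 500 or more genes were detected and no more than 20% of its UMIs were mitochondrial, which left 4226 and 4602 cells at the fetal stages E12.5 and E17.5, 3788 adult and 3184 irradiated cells. Their UMIs came to between 31908663 and 89064972 a library. The median per cell was 18637.5 UMIs at E12.5 and 11499 at E17.5, against 3699.5 for adult and 8786 for irradiated cells. Epcam, an epithelial surface marker, stood between 1058 and 1801 CPM (a gene's UMIs for each 1000000 UMIs of the summed cells). The reporter transcript was low: eGFP stood between 1.10 and 22.9 CPM. A cell was given a dominant hormone where 1 of Sst, Gip, Ghrl, Gcg, Nts and Cck reached 2% of its UMIs and exceeded the others. There were 3 such cells at E12.5 and 1010 (21.9%) at E17.5, beside 1592 (42.0%) adult and 1544 (48.5%) irradiated ones. Libraries shared between 6 and 12 cell barcodes.

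In whole libraries, 8 of the 9 factors were far higher at E17.5 than at E12.5, most stood higher again in the adult, and Neurog3 was lower in both adult libraries than at E17.5. In such sums, fewer cells of a type and less RNA per cell cannot be told apart. Neurog3 stood at 0.494 CPM (interval 0.359 to 0.663; 44 UMIs) at E12.5 and at 15.6 CPM (14.7 to 16.5) at E17.5. The adult library had 1.79 CPM (1.35 to 2.31) and the irradiated library 4.88 CPM (4.23 to 5.60). E17.5 was the highest of the 4, and no pair of intervals overlapped.

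Neurod1, a helix-loop-helix factor switched on by Neurog3 and kept in many mature endocrine cells, stood at 1.07 and 87.7 CPM at E12.5 and E17.5, and at 444 and 516 CPM in adult and irradiated cells. Insm1, a zinc-finger factor needed for endocrine differentiation, stood at 1.11, 71.8, 114 and 142 CPM in the same order. Nkx2-2, a homeodomain factor of islet and gut endocrine cells, stood at 2.32, 24.9, 34.1 and 54.0 CPM. These 3 genes shared an order, lowest at E12.5 and highest in the irradiated adult. Isl1, a LIM homeodomain factor, stood at 7.06, 92.0, 259 and 154 CPM. Pax6, a paired homeodomain factor, stood at 0.719, 39.5, 109 and 96.3 CPM, and St18, a zinc-finger factor of the Myt family, at 0.269, 13.4, 43.2 and 41.9 CPM. Isl1, Pax6 and St18 were highest in the adult, although for St18 the intervals of the adult (40.9 to 45.5) and the irradiated adult (39.9 to 43.9) overlapped. Pax4, a paired homeodomain factor of the early endocrine lineage, stood at 0.0337 CPM (3 UMIs), 17.6, 8.81 and 11.5 CPM. Rfx6, a winged-helix factor of gut endoderm and of hormone cells, stood at 17.1, 9.41, 67.7 and 43.8 CPM. Pax4 was thus highest at E17.5, and Rfx6 alone was higher at E12.5 than at E17.5. Library levels moved with depth and weighting, Rfx6 among the most: in the adult it was 23.1 CPM over cells with at least 10000 UMIs and 188 CPM as a mean of each cell's own CPM.

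**Figure D1:**
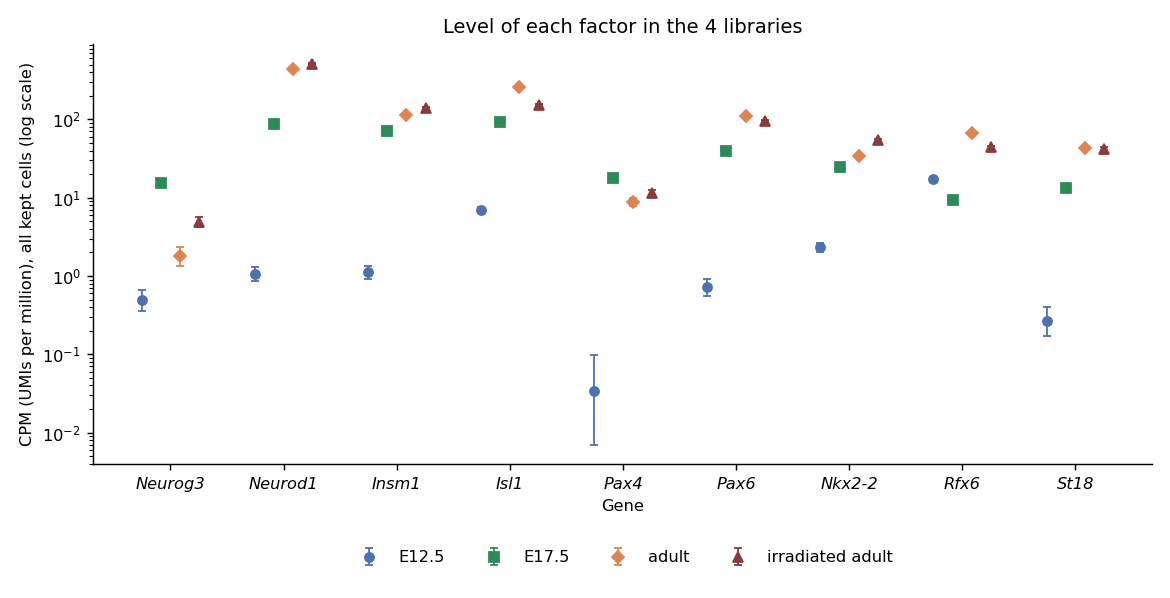
CPM over all kept cells (vertical axis, log scale) for each of the 9 factors (horizontal axis) in the 4 libraries; bars are exact 95% Poisson intervals for counting error. The E12.5 point is the lowest for 8 genes, from 0.0337 for Pax4 to 7.06 for Isl1, while Rfx6 stands at 17.1 at E12.5 and 9.41 at E17.5.

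Ratios between libraries were taken as log2 of CPM plus 1, and a gene was called where the ratio reached 2-fold. From E12.5 to E17.5, 8 of the 9 factors were called higher and 0 lower, against 15.9% of the 14607 genes tested called higher and 16.2% lower. The log2 ratios ran from 2.96 for Nkx2-2 to 5.42 for Neurod1, with Rfx6 at -0.80, and the median of the 9 was 3.53 beside -0.19 for all genes. Over the same cells, 6 islet markers, from an organ in which most of these factors act, summed to 13.3 CPM at E12.5 and 6416 CPM at E17.5, with 6 of 6 detected in both. Pancreatic acinar markers went from 30.6 CPM (5 of 6 detected, Prss1 at 0) to 10498 CPM (6 of 6), and their part in the result was not tested. From E17.5 to the adult, 5 factors were called higher (Rfx6 2.72, Neurod1 2.33, St18 1.62, Isl1 1.48 and Pax6 1.45), and 1, Neurog3, was called lower at -2.57. Pax4 stood at -0.92, and the background was 14.1% of 14099 genes higher and 15.2% lower. In adult cells islet markers summed to 382 CPM, with Ins1, Ins2 and G6pc2 at 0, and Paneth markers to 52564 CPM against 220 CPM at E17.5. Their part in the result was not tested. Between adult and irradiated adult, 1 factor was called higher, Neurog3 at 1.08, and 0 lower, against 3.07% of 12913 genes higher and 5.33% lower. The other 8 factors lay between -0.75 (Isl1) and 0.65 (Nkx2-2). The Neurog3 call rested on 1 cell, which held 75 of the 202 Neurog3 UMIs of the irradiated library. With the top cell of each library left out, the log2 ratio of Neurog3 was 0.77.

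Other genes of the pathway were counted in the same way. From E12.5 to E17.5, 15.9% of all genes tested were called higher and 16.2% lower, and from E17.5 to the adult 14.1% and 15.2%. Of 13 genes for secretory products (granins, prohormone convertases, vesicle proteins), 13 were called higher at E17.5 than at E12.5 and 11 higher in the adult than at E17.5, with Pcsk2 called lower. Of 19 other endocrine transcription factors tested, 10 were called higher at E17.5 than at E12.5 and 2 lower. Of 18 tested from E17.5 to the adult, 6 were called higher and 4 lower. Of 12 genes of the Neurog3 stage, such as the Notch ligand gene Dll1, 7 were called higher at E17.5 than at E12.5 and 4 lower. Between adult and irradiated adult, 0 of these 12 were called in either direction. That is near what the shares of all genes would give, 3.07% higher and 5.33% lower. Of 8 Notch receptors and progenitor genes, 2 were called higher after irradiation and 2 lower.

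At E12.5 the factors were found in different cells. Only 16 cells had a dominant hormone (3, all Gcg) or at least 2 UMIs of the granin genes Chga and Chgb. These 16 cells held 92.6% of the library's Neurod1 UMIs, 92.2% of Pax6 and 91.7% of St18, but 60.6% of Insm1, 35.3% of Isl1 and 21.7% of Nkx2-2. Their level of Isl1 was 726 CPM (633 to 828), of Neurod1 288 CPM (231 to 354) and of Pax6 193 CPM (147 to 249). They held 0.459% of the Rfx6 UMIs and none of the 44 Neurog3 UMIs. In the 13 cells with granins only, enteric neuron markers summed to 1734 CPM and islet markers to 1536 CPM. In the 4210 cells outside the 16, these sums were 9.22 and 7.64 CPM. Islet markers summed to 1902 CPM in the 3 Gcg cells. The part of neurons or islet cells in the levels of the 16 cells was not tested.

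Rfx6 was spread over the E12.5 epithelium. A Rfx6 UMI was found in 1135 of 4226 cells (26.9%, interval 25.5% to 28.2%), of which 1129 also had an Epcam or Cdh1 UMI, and no cell held more than 6. After every cell had been thinned at random to 2000 UMIs, shallower cells being left out, the share was 3.58% (131 of 3655 cells) at E12.5 and 3.60% (159 of 4412) at E17.5. The Rfx6-positive E12.5 cells were deeper, with a median of 27233 UMIs against 16089 in the rest. Gata4, a factor of the proximal gut, stood at 53.2 CPM (50.8 to 55.7) in the Rfx6-positive cells and 34.0 CPM (32.5 to 35.6) in the rest. The posterior genes Hoxb13 and Hoxb9 stood at 2.99 and 3.28 CPM in the Rfx6-positive cells against 9.51 and 10.4 CPM. Proximal and distal markers thus differed between the sets in opposite directions, and the part of depth in this was not tested. At E12.5, Isl1 UMIs were found in 293 cells and Nkx2-2 UMIs in 92, against 17 for Neurod1 and 12 for St18.

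Levels by dominant hormone were compared within each gene across cell classes, in E17.5, adult and irradiated adult cells, in that order below. Cells without a dominant hormone were also divided, by a split made after the data had been seen, into Tph1-rich cells (Tph1 at 0.05% or more of UMIs), cells with tuft markers, cells rich in granins, insulin-rich cells and the rest. Tph1 encodes the rate-limiting enzyme of serotonin synthesis, the product of enterochromaffin cells. There were 300, 693 and 993 Tph1-rich cells, and 81, 155 and 153 cells lay within a factor of 2 of the Tph1 threshold. The Gip class had 127, 1070 and 492 cells, the Cck class 342, 267 and 726, the Sst class 108, 127 and 212, the Nts class 148, 88 and 60, the Ghrl class 198, 29 and 27, and the Gcg class 87, 11 and 27. The 11 adult Gcg cells were left out of the ordering. It covers the hormone classes and Tph1-rich cells only, without the granin-rich, insulin-rich and tuft-marker cells and the rest.

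Rfx6 was highest in the Gip class, the cells that make the incretin GIP, in all 3 libraries, at 106 CPM (88.2 to 126), 345 (330 to 362) and 278 (261 to 296). Of the ordered classes, the next stood at 48.3 CPM (Tph1-rich), 99.5 (Nts) and 77.0 (Nts). That puts the Gip class 2.19-, 3.47- and 3.61-fold above it with no overlap of intervals. The E17.5 granin-rich cells, outside this order, stood between at 61.0 CPM (50.6 to 73.0). Below the second class the Rfx6 intervals mostly overlapped: in the adult the Sst (26.6), Ghrl (26.0), Tph1-rich (24.8) and Cck (20.8) classes could not be ordered. Per cell, a Rfx6 UMI was found in 15.3% (9.48% to 22.9%), 57.8% (54.2% to 61.2%) and 52.9% (47.9% to 58.0%) of Gip cells thinned to 2000 UMIs. In adult cells with tuft markers, which are another lineage, the share at the same depth was 1.31%. Thinning left out 284 of the 1070 adult Gip cells.

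Pax6 was also highest in the Gip class in all 3 libraries, at 324 CPM (292 to 357), 457 (439 to 476) and 386 (366 to 406). It was lowest in Tph1-rich cells each time, at 63.5, 47.5 and 58.8 CPM. The second class was Gcg at 224 CPM, Nts at 228 and Gcg at 230, and the other hormone classes lay between these, with intervals that mostly overlapped. Rfx6 and Pax6, both known regulators of Gip, thus had the same top class in each library.

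Depth moved with these levels. In the adult Gip class, Rfx6 stood at 622 CPM in the 867 cells under 5000 UMIs, 274 in the 53 cells from 5000 to under 10000, and 128 in the 150 cells with at least 10000. In the irradiated adult it stood at 615 (288 cells), 319 (60) and 175 (144), and at E17.5 at 138 from 5000 to under 10000 UMIs (89 cells) and 63.4 above (34 cells). Malat1, a long RNA retained in the nucleus, followed the same order, at 53859, 32337 and 10965 CPM in the adult Gip cells. Shallow cells were thus higher in Rfx6, Malat1 and, in the adult, the mitochondrial share (10.1%, 7.55% and 3.24% by median), and the part of cell damage or depth in the Rfx6 level was not tested. Restricted to cells with at least 10000 UMIs, the Gip class stayed highest for Rfx6 in all 3 libraries, 1.99-, 7.22- and 3.31-fold above the second. These folds are over 5, 4 and 6 classes with at least 20 such cells, which no longer hold the second class of the full set (Tph1-rich, Nts and Nts), so the runner-up was Gcg, Tph1-rich and Gcg. Pax6 stayed highest there too, at 220, 279 and 324 CPM.

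**Figure D2:**
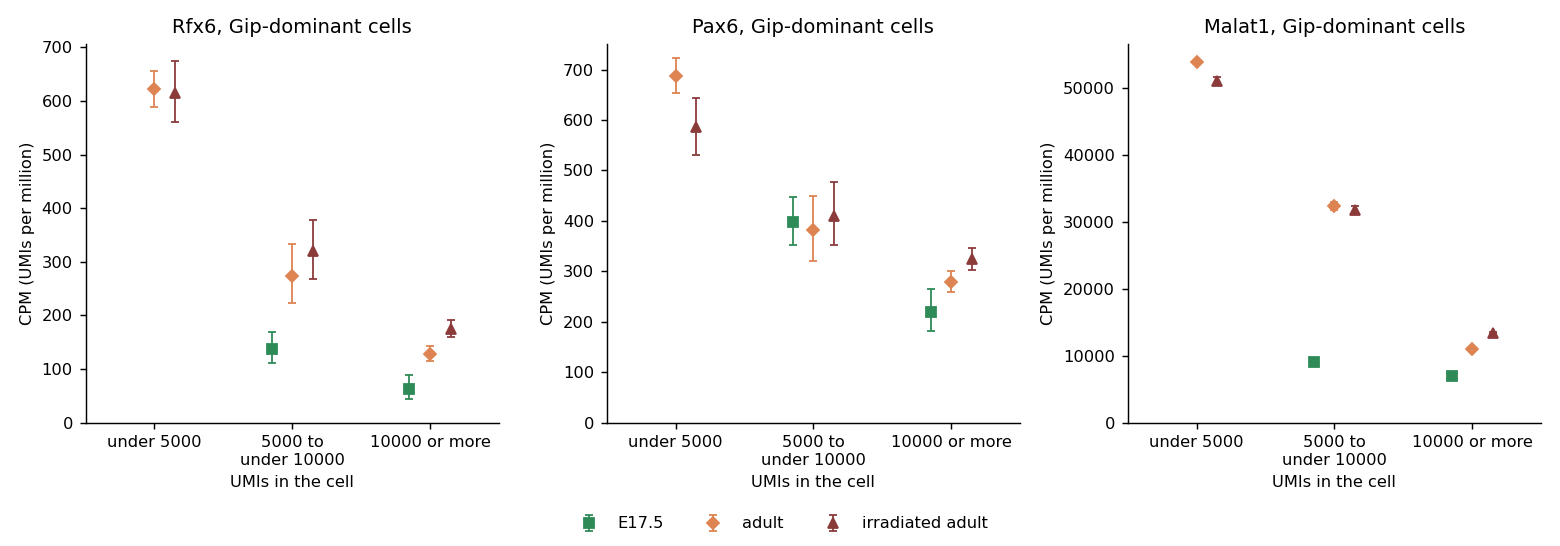
CPM of Rfx6, Pax6 and Malat1 (vertical axes) in Gip-dominant cells grouped by UMIs per cell (horizontal axis), with a marker for each library and exact 95% Poisson intervals; E17.5 has too few such cells under 5000 UMIs for a point. Rfx6 in the adult goes from 622 in cells under 5000 UMIs to 128 in cells with at least 10000, and Malat1 from 53859 to 10965.

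Isl1 had the widest range over the classes among the factors found in all of them. In the Sst class, cells that make somatostatin, it stood at 906 CPM (842 to 973), 961 (907 to 1018) and 728 (695 to 762). In the Ghrl class, cells that make ghrelin, it stood at 834, 1109 and 526 CPM, and in the Gip class at 610, 960 and 514. The Cck class had 272, 307 and 196 CPM and the Nts class 113, 249 and 259. Tph1-rich cells were lowest each time at 22.8 (16.4 to 30.8), 20.3 (16.4 to 24.8) and 15.4 (13.1 to 18.1), which is 39.7-, 54.6- and 47.1-fold below the highest class. The top of the order did not separate at E17.5 or in the adult, where the Sst and Ghrl intervals overlapped. Among thinned cells an Isl1 UMI was found in 77.4%, 81.4% and 77.4% of the Sst class and in 2.40% (0.969% to 4.88%), 4.58% (3.04% to 6.60%) and 28 of 904 (2.07% to 4.45%) of Tph1-rich cells. In E17.5 cells without a hormone or granins the share was 0.867% (0.544% to 1.31%), and in tuft-marker cells it was 2.84% (1.87% to 4.14%) in the adult and 0.870% (0.105% to 3.11%) after irradiation. As CPM, Isl1 stood in those background cells at 4.35 (3.82 to 4.93), 15.9 (12.5 to 19.9) and 4.87 (1.96 to 10.0), below the Tph1-rich cells at E17.5 and after irradiation and with overlapping intervals in the adult. The intervals of the thinned shares overlapped in all 3 libraries, and 1 cell held 16 of the 42 Isl1 UMIs of the E17.5 Tph1-rich cells.

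Neurod1 ran nearly the other way. It was lowest in the Sst class in all 3 libraries, at 113 CPM (91.5 to 139), 159 (138 to 184) and 263 (243 to 284). Tph1-rich cells stood at 862 CPM (820 to 905), 1529 (1494 to 1565) and 952 (933 to 971), the highest class at E17.5 and in the adult. The Nts class stood at 441, 1385 and 1203 CPM and was the highest in the irradiated adult, and the Cck class at 410, 1053 and 871. In the adult the Tph1-rich and Nts intervals overlapped. Gip cells stood at 230, 394 and 385 CPM, above the Sst class in each library. In each library the 3 classes with most Neurod1 were thus the 3 with least Isl1: Tph1-rich, Nts and Cck.

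Pax4 was highest in Tph1-rich cells in all 3 libraries, at 179 CPM (160 to 199), 38.1 (32.7 to 44.1) and 30.1 (26.8 to 33.7), and no hormone class reached those intervals. At E17.5 it followed in the Cck class at 83.3 CPM, the Nts class at 57.1, the Gip class at 52.0, the Ghrl class at 35.1, the Gcg class at 26.1 and the Sst class at 24.4. The Nts and Gip intervals overlapped, as did those of the last 3 classes. The E17.5 granin-rich cells, outside this order, stood at 103 CPM (89.5 to 118). A Pax4 UMI was found in 29.1% (24.0% to 34.7%), 7.13% (5.19% to 9.52%) and 6.31% (4.81% to 8.09%) of thinned Tph1-rich cells, against 1.39% of the E17.5 cells outside all other classes and 0 of 914 adult tuft-marker cells.

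Nkx2-2 was lowest in the Nts class each time, at 29.6 CPM (21.3 to 40.2), 29.0 (11.7 to 59.8) and 52.5 (29.4 to 86.5), with intervals that overlapped those of the Sst class. Its highest class changed with the library: Tph1-rich at E17.5 with 144 CPM, Ghrl in the adult with 167 CPM, and Gcg in the irradiated adult with 127 CPM. The adult Ghrl interval was clear of the next class, and the other 2 were not. Insm1 varied little, between 234 and 377 CPM over the E17.5 classes, 192 and 252 in the adult and 191 and 272 in the irradiated adult. St18 ran from 46.0 to 71.9 CPM over the ordered E17.5 classes, where the highest and second did not separate. Insulin-rich cells, outside this order, stood at 35.5 CPM. In the adult it stood at 129 CPM in Nts and 124 in Gip cells against 22.0 in Tph1-rich cells, and in the irradiated adult Tph1-rich cells were lowest again at 23.6. The highest class was 1.61-, 1.31- and 1.43-fold above the lowest for Insm1, and 1.56-, 5.83- and 4.08-fold for St18, where the Tph1-rich class set the low end in both adult libraries.

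**Figure D3:**
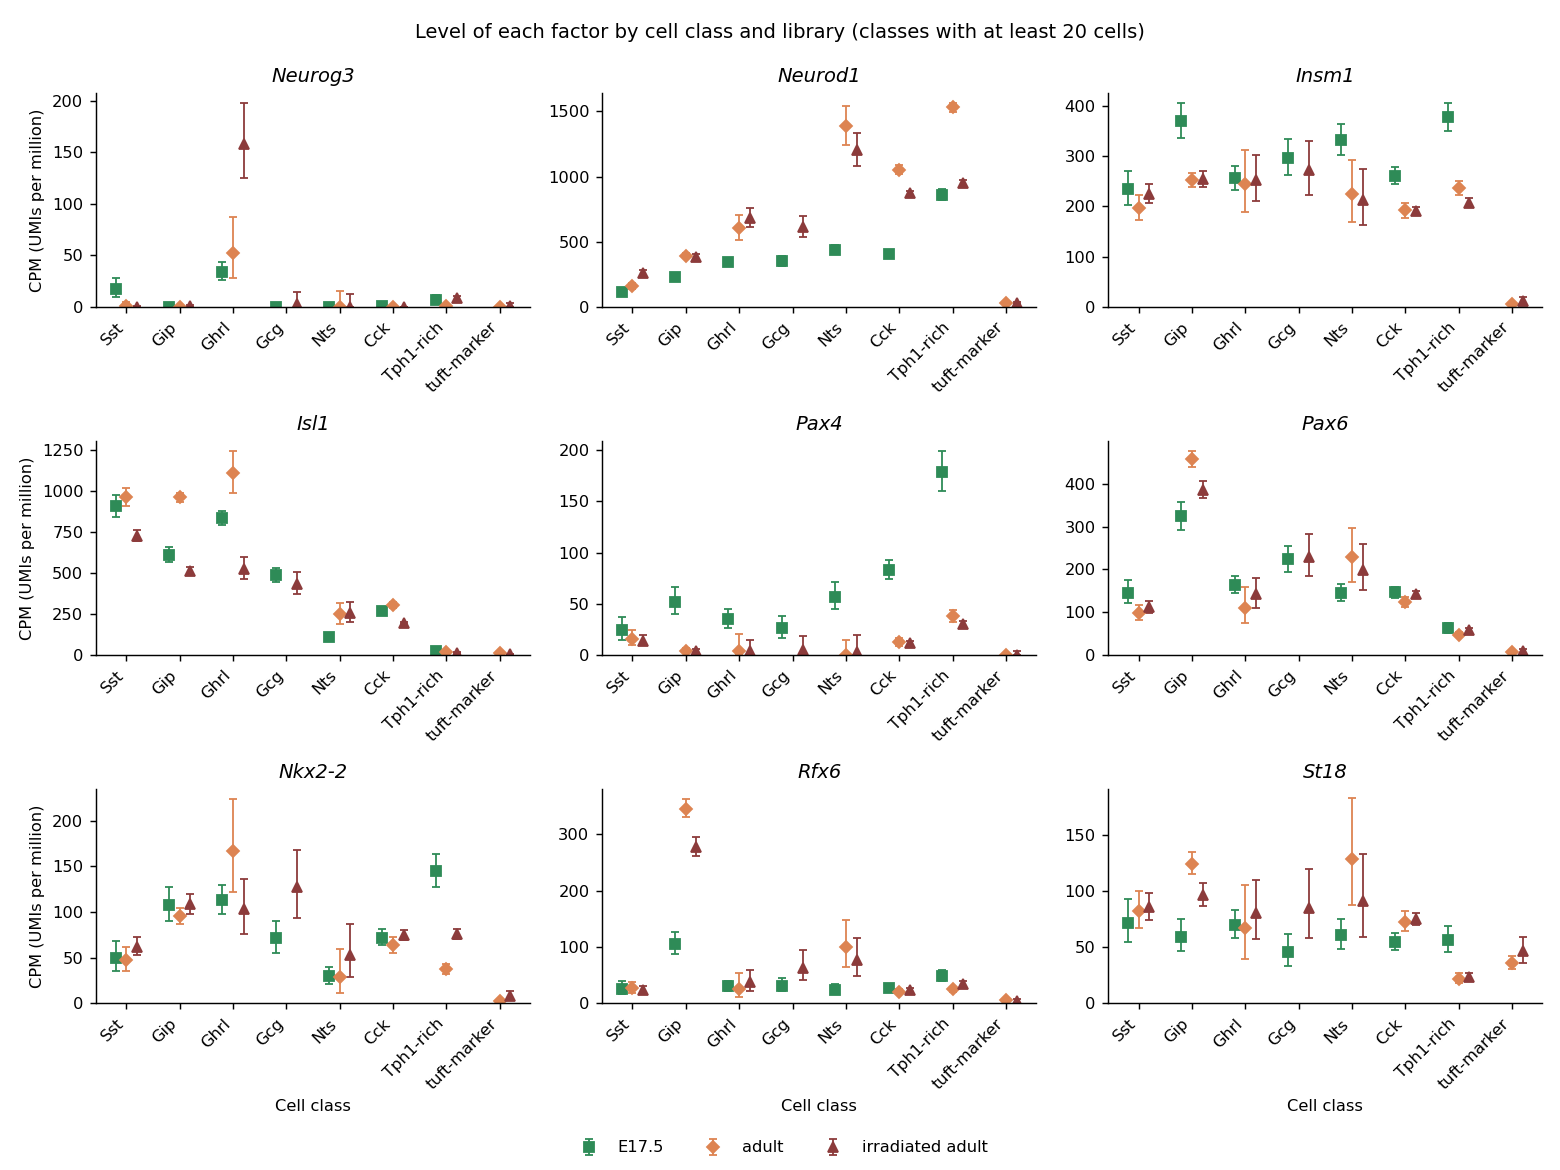
CPM (vertical axes, linear, separate scale for each gene) of the 9 factors by cell class (horizontal axis) in the E17.5, adult and irradiated adult libraries, for classes with at least 20 cells; bars are exact 95% Poisson intervals. Rfx6 and Pax6 peak in the Gip class, Isl1 is lowest among endocrine classes in Tph1-rich cells (22.8, 20.3 and 15.4), and Pax4 is highest there (179, 38.1 and 30.1).

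Cells with tuft markers give a background for the factors, with St18 as the exception. The 986 adult and 256 irradiated cells of this set had Dclk1 at 1526 CPM and Trpm5 at 1165 CPM in the adult, both markers of the chemosensory tuft lineage. St18 stood there at 36.2 CPM (31.0 to 42.1) and 46.6 CPM (36.1 to 59.2), above the Tph1-rich cells of the same libraries at 22.0 CPM (18.0 to 26.7) and 23.6 CPM (20.7 to 26.8). Of the other factors in the tuft-marker cells, Neurod1 stood at 31.1 and 31.3 CPM, against 1529 and 952 CPM in Tph1-rich cells, and Rfx6 at 5.36 and 3.48 CPM. In the 204 adult tuft-marker cells without a granin UMI, St18 stood at 33.9 CPM (23.5 to 47.4) and Neurod1 at 14.0 CPM (7.63 to 23.4). Without granin UMIs, St18 thus stayed inside the interval of the whole set, while Neurod1 fell outside its own (26.2 to 36.6). After thinning, a St18 UMI was found in 7.22% of 914 adult and 9.57% of 230 irradiated tuft-marker cells, against 5.94% and 4.09% of Tph1-rich cells. The intervals of these shares overlapped in the adult (5.63% to 9.10% against 4.17% to 8.17%). After irradiation they did not (6.09% to 14.1% against 2.90% to 5.60%).

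Single cells carried several factors. Among thinned cells, at least 3 of the 9 factors were detected in 49.2%, 76.7% and 69.7% of Gip cells. The order of libraries is again fetal, adult, irradiated. In Tph1-rich cells the shares were 33.6%, 16.3% and 15.4%, and in adult tuft-marker cells 0.547%. The Gip class had the highest share among the hormone and Tph1-rich classes in each library. At E17.5 its interval overlapped those of the Ghrl, Gcg and Sst classes (45.6%, 42.5% and 34.9%). In the irradiated adult it overlapped those of the Ghrl and Gcg classes (46.2% and 48.0%).

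Within hormone-dominant cells, fewer factors differed between E17.5 and adult than in whole libraries. Rfx6 was called higher in the adult, at 183 CPM against 37.5 (log2 ratio 2.26), while Pax4 was called lower, at 8.26 CPM against 56.6 (-2.64), as was Neurog3, at 1.54 CPM against 7.95 (-1.82). The Neurog3 call was lost with equal weight to the hormone classes, at a log2 ratio of 0.0194: Ghrl cells, which held most of the Neurog3, went from 198 to 29, and within them the adult stood at 51.9 CPM against 34.0 with overlapping intervals. That is 1 of 9 higher and 2 lower, beside 10.9% of 10974 genes higher and 8.15% lower. Isl1 stood at 732 against 466 CPM (0.65), Neurod1 at 609 against 351 (0.79), Pax6 at 288 against 179 (0.69) and St18 at 99.9 against 59.3 (0.74). Insm1 at 224 against 285 CPM (-0.35) and Nkx2-2 at 79.9 against 75.7 (0.08) differed least.

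Class makeup, depth and other cells touch these ratios. Gip cells, the class highest in Rfx6, were 127 of 1010 hormone-dominant cells at E17.5 and 1070 of 1592 in the adult. With equal weight to hormone classes Rfx6 was still called higher, and the part of class makeup in its ratio was not tested. In hormone-dominant cells with at least 10000 UMIs, Rfx6 stood at 58.9 CPM in the adult and 25.7 at E17.5 (1.17), Isl1 at 573 and 280 (1.03), St18 at 78.0 and 37.7 (1.03) and Pax4 at 9.53 and 47.2 (-2.19), so that 3 factors were called higher and 2 lower. Islet markers summed to 2600 CPM in the hormone-dominant cells at E17.5, with 6 of 6 detected. In the adult they summed to 1148 CPM, where Ins1, Ins2, Nkx6-1 and G6pc2 were at 0. The Sst class was high in this sum in each library, at 13349 CPM at E17.5, 9792 in the adult and 10584 after irradiation. Acinar markers summed to 1343 CPM at E17.5 with 6 of 6 detected, and to 55.0 CPM in the adult with 1 of 6. Paneth markers summed to 112 CPM at E17.5 and 3956 CPM in the adult. The part of these cells or of their free RNA in the ratios was not tested. With insulin-rich cells left out, the counts of factors called stayed 1 higher and 2 lower.

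By class, Pax4 was lower in the adult in 6 of 6 classes, and by 2-fold or more in 5 (Gip -3.27, Ghrl -2.94 on 1 adult UMI, Cck -2.64, Tph1-rich -2.20 and Nts, where the 88 adult cells held 0 Pax4 UMIs and 3 UMIs would be 12.4 CPM). The Sst class stood at -0.60 with overlapping intervals. Among cells with at least 10000 UMIs the Pax4 ratio was -2.13 in Gip and -2.45 in Cck cells, the classes with enough such cells in both libraries. Neurod1 was higher in the adult in 6 of 6 classes and past 2-fold in 2, Nts (1.65) and Cck (1.36), with overlapping intervals in Sst cells (0.49). Insm1 was lower in 6 of 6 and past 2-fold in 0, with overlapping intervals in Ghrl (-0.07) and Sst cells (-0.25). In cells with at least 10000 UMIs it was lower in 1 of 2 classes: Insm1 in Gip cells stood at 321 CPM in the adult against 232 (0.47), and in Cck cells at 207 against 210, with overlapping intervals.

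Rfx6 was higher past 2-fold in 2 of 6 classes, Gip (1.70) and Nts (1.98), and stood at -0.93 in Tph1-rich cells. In Sst (0.05), Ghrl (-0.20) and Cck cells (-0.40) the Rfx6 intervals of the stages overlapped. For deep Gip cells the Rfx6 ratio was 1.00, just under the call. St18 was higher in Gip (1.05) and Nts (1.07) and lower in Tph1-rich cells (-1.32). Nkx2-2 was lower past 2-fold in Tph1-rich cells only, at 37.4 against 144 CPM (-1.92). These class differences were not tested, and the classes differ in depth: the adult Nts cells had a median of 2092 UMIs against 8660.5 at E17.5.

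Between adult and irradiated adult, hormone-dominant cells differed in 3 factors by the call. Neurog3 stood at 4.81 against 1.54 CPM (1.20), Isl1 at 361 against 732 (-1.02) and Rfx6 at 82.1 against 183 (-1.15), which is 1 higher and 2 lower beside 2.41% of 11322 genes higher and 3.54% lower. Neurod1 at 668 CPM (0.13), Insm1 at 214 (-0.07), Pax4 at 9.74 (0.21), Pax6 at 194 (-0.57), Nkx2-2 at 81.8 (0.03) and St18 at 81.8 (-0.29) lay within 2-fold of the adult. Neurog3 turned to -0.60 when the top cell of each library was left out. In cells with at least 10000 UMIs, Isl1 stood at 339 against 573 CPM (-0.75) and Rfx6 at 50.8 against 58.9 (-0.21), neither of them called. Class makeup differed as well: Gip cells, high in both genes, were 1070 of 1592 hormone-dominant cells in the adult and 492 of 1544 after irradiation. Paneth markers summed to 7061 CPM in the irradiated hormone-dominant cells against 3956, with 6 of 6 detected in both, and tuft markers to 531 against 269. Their part in the result was not tested.

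By class, Isl1 was lower in the irradiated library in 5 of 6 classes (Ghrl -1.07, Gip -0.90, Cck -0.65, Sst -0.40 and Tph1-rich -0.37) and near equal in Nts cells (0.06). The Ghrl ratio alone passed 2-fold, on 27 and 29 cells, and the Tph1-rich intervals overlapped. In cells with at least 10000 UMIs, Isl1 was lower in 3 of 4 classes and turned in Tph1-rich cells, at 17.4 against 9.08 CPM (0.87). Rfx6 lay between -0.37 and 0.50 in all 6 classes. In deep cells Rfx6 was higher after irradiation in 4 of 4 classes and past 2-fold in 0, and the Gip class turned from 278 against 345 CPM to 175 against 128. Nkx2-2 was called higher in Tph1-rich cells, at 76.0 CPM (70.7 to 81.6) against 37.4 (32.1 to 43.4), and stood at 91.6 against 33.0 CPM in those with at least 10000 UMIs (1.45). In the Tph1-rich class Neurog3 also stood higher, with 90 UMIs in 12 of 993 cells against 5 UMIs in 2 of 693, and 1 cell held 31 of the 90. Insm1 lay between -0.19 and 0.19 in all 6 classes.

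Neurog3 itself marked few cells. At E17.5 a Neurog3 UMI was found in 169 cells (3.67%, 3.15% to 4.26%). There were 26 such cells at E12.5 (0.615%, 0.402% to 0.900%), 23 among adult cells (0.607%, 0.385% to 0.910%) and 19 among irradiated cells (0.597%, 0.360% to 0.930%). The E17.5 share stood apart, and the other 3 could not be ordered, although adult cells were far shallower. Positive cells were compared with cells that had a dominant hormone or at least 2 granin UMIs and no Neurog3 UMI, called other endocrine cells below. In the adult libraries that rule also takes in cells with tuft markers, 507 of 3177 adult and 239 of 3144 irradiated cells, and none at E17.5. It also takes in cells outside all other classes, a set with Paneth markers at 137765 CPM in the adult and 238601 CPM after irradiation. Of the 3184 irradiated cells, only 21 had neither a dominant hormone nor 2 granin UMIs. Neurog3-positive cells were deeper than the other endocrine cells without tuft markers in the adult (median 13058 against 3426 UMIs) and after irradiation (15784 against 9331). They were closer at E17.5 (9457 against 8105).

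Of the 169 positive cells at E17.5, 77 had neither a dominant hormone nor 2 granin UMIs, 70 had granins only, 19 were Ghrl cells, 2 Sst and 1 Cck. In the Gip, Gcg and Nts classes no Neurog3 UMI was found, where 3 UMIs would be 2.48, 3.13 and 2.17 CPM. Among hormone classes Neurog3 was highest in Ghrl cells in all 3 libraries, at 34.0 CPM (26.0 to 43.8), 51.9 (28.4 to 87.1; 14 UMIs) and 158 (125 to 198). The last value rested on 2 cells, 1 of which held 75 of the 77 UMIs, and was 4.92 CPM with the hormone threshold at 5%. At E17.5 the Ghrl interval overlapped that of the Sst class, at 17.1 CPM (9.33 to 28.6). In the irradiated library 12 of the 19 positive cells were Tph1-rich, against 2 of 23 in the adult, where 6 were Ghrl cells.

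The E17.5 positive cells were split by factors of 2 organs, the intestine and the pancreas. The intestinal factors Cdx1 or Cdx2 were detected in 94, the pancreatic factors Nkx6-1 or Ptf1a in 44, both in 6 and neither in 37. Acinar and islet transcripts were present at this stage, as given above, and their part in these levels was not tested. Neurog3 stood at 928 CPM (842 to 1020) in the 44 cells with a pancreatic factor and at 192 CPM in the 88 with a Cdx UMI only. Every other factor was higher in the former as well: Insm1 438 against 188 CPM, Neurod1 337 against 104, Isl1 280 against 118, Nkx2-2 236 against 70.9, Pax4 225 against 51.7, Pax6 123 against 32.1, Rfx6 65.6 against 21.1 and St18 54.7 against 20.6. At E12.5, the 26 positive cells had Nkx2-2 at 60.6 CPM and Insm1 at 27.7 CPM and no UMI of Isl1, Pax6 or St18. There, Spp1 stood at 885 CPM, Pdx1 at 215 CPM and Cdx2 at 86.6 CPM. Cdx1 or Cdx2 was detected in 12 of these 26 cells, Nkx6-1 or Ptf1a in 14, both in 5 and neither in 5.

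Against the 1819 other endocrine cells of the E17.5 library, the 169 Neurog3-positive cells had less Neurod1 and Pax6, but neither was called lower in those positive cells that had a hormone or granins themselves. Over all 169, Neurod1 stood at 152 CPM (138 to 167) against 321 (313 to 329), a log2 ratio of -1.08, and Pax6 at 52.5 CPM (44.3 to 61.7) against 147 (142 to 152), a ratio of -1.47. Both were called lower, which is 2 of 8 lower and 0 higher beside 10.9% of 11642 genes lower and 3.68% higher. Isl1 at 191 against 328 CPM (-0.78) and St18 at 27.5 against 47.9 (-0.78) were lower within 2-fold. Pax4 at 93.5 against 55.5 CPM (0.74), Nkx2-2 at 118 against 72.4 (0.69) and Insm1 at 274 against 240 (0.19) were higher within 2-fold, and Rfx6 at 30.3 against 31.9 (-0.07) had overlapping intervals. The median over the 8 was -0.42, and over all genes 0.00 to 2 decimals. The other endocrine cells were chosen by hormones or granins, which 77 of the 169 lack, so part of these differences follows from the choice.

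The 92 positive cells with a hormone or at least 2 granin UMIs, a subset compared after seeing the data, met the same hormone or granin rule as the others. Class makeup still differed: 70 of the 92 had granins only and 19 were Ghrl cells, while the others held all 6 hormone classes and insulin-rich cells. By class at E17.5, Pax4 ran from 10.5 CPM in insulin-rich to 179 CPM in Tph1-rich cells. The part of class makeup was not tested. Neurod1 stood at 261 CPM (235 to 290) against 321 and Pax6 at 107 CPM (90.5 to 126) against 147, both lower within 2-fold and not called. Pax4 stood at 138 CPM (119 to 160) against 55.5 and was the 1 factor called, as higher. Nkx2-2 at 129 CPM (110 to 149) and Insm1 at 319 CPM (290 to 350) were higher within 2-fold. Isl1 at 329 CPM and St18 at 48.1 CPM were near the other cells' 328 and 47.9, and Rfx6 stood at 43.7 CPM (33.2 to 56.3) against 31.9 (29.4 to 34.5) with intervals that just overlapped.

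**Figure D4:**
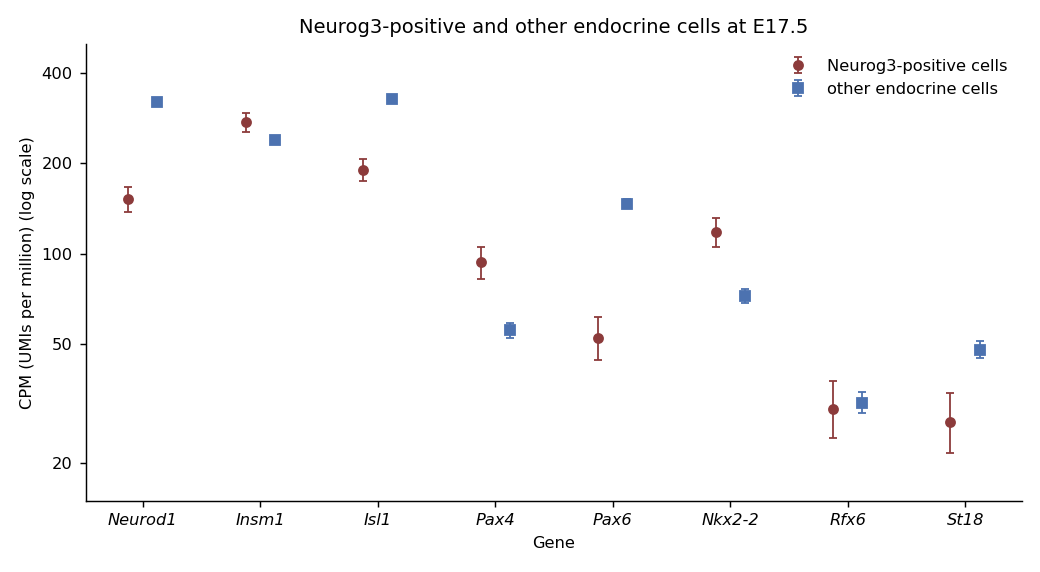
CPM (vertical axis, log scale) of the other 8 factors (horizontal axis) in the 169 Neurog3-positive and the 1819 other endocrine cells of the E17.5 library, with exact 95% Poisson intervals. Neurod1 (152 against 321) and Pax6 (52.5 against 147) are lower in the positive cells, of which 77 have neither a hormone nor 2 granin UMIs, Pax4 and Nkx2-2 are higher, and the Rfx6 intervals overlap.

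In the other 77 positive cells, Insm1 stood at 232 CPM, Nkx2-2 at 108, Isl1 at 61.4, Pax4 at 51.7, Neurod1 at 49.7, Rfx6 at 17.9, St18 at 8.28 and Pax6 at 1.38 (2 UMIs). All 8 were below the 92, Nkx2-2 least (108 against 129 CPM) and Pax6 most.

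The gene lists were counted over all 169 positive cells, with the same effect of the choice of cells. Of all 11642 genes tested, 3.68% were called higher there and 10.9% lower. Of 12 genes of the Neurog3 stage, 9 were called higher in the positive cells (Dll1, Mfng, Sox4, Btbd17, Cbfa2t3, Gadd45a, Rcor2, Tox3 and Igfbpl1) and 0 lower, with a median log2 ratio of 1.36. Of 8 Notch receptors and progenitor genes, 6 were called higher, among them Hes1, Sox9 and Lgr5. Of 13 secretory product genes, 13 were called lower, with a median of -2.71, in a comparison whose second group was partly chosen by Chga and Chgb, which are among them. Of 18 other endocrine transcription factors tested, 5 were called lower, among them Etv1, Lmx1a, Hhex and Pdx1, and 0 higher.

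Transcripts of the G2/M phase were also found more often in positive cells. With at least 3 UMIs over 15 G2/M genes after thinning as the mark, 40 of 169 Neurog3-positive cells at E17.5 passed (23.7%, 17.5% to 30.8%), against 126 of 1782 other endocrine cells (7.07%, 5.92% to 8.36%). Of the 92 with a hormone or granins, 19 passed (20.7%, 12.9% to 30.4%). Of adult positive cells, 6 of 19 passed (31.6%, 12.6% to 56.6%) against 79 of 2109 other endocrine cells without tuft markers (3.75%). Of irradiated positive cells, 0 of 19 passed, with an upper limit of 17.6%, against 1.28% of the others without tuft markers. In both adult libraries these other cells still include some of the set high in Paneth markers, so they are not an endocrine baseline alone. The 12 of 25 positive cells at E12.5 (48.0%) have only 15 cells with a hormone or granins beside them. The E17.5 and adult intervals of positive and other cells did not overlap.

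Likeness of pattern was measured by Pearson's r of log2 of CPM plus 1 over 27 sums, each of at least 30 cells of 1 class in 1 library, for 13314 genes, as a description. Sums of 1 library share its depth and free RNA. Most like Neurod1 were Pcsk1, Rundc3a and Celf3 (each 0.96), most like Insm1 Scg3 (0.97), Gnao1 (0.97) and Pcsk1n (0.96), and most like Nkx2-2 Cplx2, Fev and Pam (each 0.95). Pcsk1, Scg3, Pcsk1n and Pam encode proteins of the secretory granule. Among those most like Pax6 were Gnao1 (0.96) and Gfra3 (0.94), and most like Isl1 were Abcc8 (0.93), Nefm (0.91) and Scgn (0.90), and most like St18 Ptprn2 (0.92), Rai2 (0.91) and Cyld (0.90). Rfx6 had Rab23 (0.89), Rev3l and Itpr1 (both 0.88), and Pax4 Ap3s1 (0.89), Dynlt3 and Vps51 (both 0.88). Neurog3 had the weakest matches: Megf6 and Cbs (both 0.70) and Nr2e3 (0.68), and its closest fellow factor was Pax4 at 0.34. The closest pair of factors was Insm1 and Nkx2-2, at 0.94. With Malat1, which followed depth in the Gip cells above, r was 0.59 for St18, 0.46 for Neurod1 and 0.30 for Rfx6, and between -0.33 and 0.22 for the other 6.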

How the data were processed

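Single-cell RNA libraries of sorted gut epithelial cells were analysed from the UMI count matrices that the authors deposited, 1 for each of 4 groups, made with Cell Ranger 3.1.0 on mm10, per the submitters' processing notes. How barcodes were selected, the strand setting and doublet removal are not given in the sources used here. Gene positions came from the GENCODE annotation of GRCm38, in which 31011 of 31053 gene identifiers (99.9%) were found, and promoter windows from RefSeq, in which 6 of the 9 genes matched.

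Cells with 500 or more genes and 20% or less mitochondrial UMIs were kept. UMIs were summed by library or class and given as CPM with exact 95% Poisson intervals, and shares of cells with Clopper-Pearson intervals, both for counting error only. Log2 ratios used CPM plus 1, over genes with 50 or more UMIs in either sum, and a call meant 2-fold or more. Shares of cells were compared after thinning each cell to 2000 UMIs. Sums and cells of 1 library are not replicates, so no test between groups was made. The classes of cells without a dominant hormone used tuft markers at 0.5%, Tph1 at 0.05% and granins at 0.5% of UMIs, and insulin at 2%. The members and gene lists were chosen with earlier results of these data known, and the genes named for likeness were the 3 with the highest r for each factor. Some items that these rules would name are not reported here. Putative doublets, called with Scrublet in scanpy 1.11.5 at 0.8% per 1000 barcodes, stayed in the main values and were removed as an alternative. Other alternatives were every barcode, a stricter cell filter, edgeR 4.0.16 TMM factors (R 4.3.3), other totals, pseudocounts, hormone and count minimums, and, added after seeing the data, cells with at least 10000 UMIs, equal weight to hormone classes, Neurog3-positive cells with a hormone or 2 granin UMIs, and removal of the cell with most UMIs of a gene. Counts were simulated with 200 genes changed, each by more than 2-fold. For adult against E17.5 hormone-dominant cells (10061 genes) 99% were called in the right direction, and for E17.5 against E12.5 (13303 genes) 89.5%. In these runs 0 unchanged genes were called. The draws came from the summed counts of 1 library and held no variation between cells, classes or libraries. They cover counting error only and do not show how often real calls would repeat. Sums were made in Python 3.11.15 with pandas 2.3.3 and numpy 2.4.6, intervals with scipy 1.17.1 and plots with matplotlib 3.10.9.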

Additional observations from a re-analysis of the deposited data

Results flagged for a closer look

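St18, the Myt-family zinc-finger factor, differed in direction between cell classes under the same contrast. From E17.5 to the adult its log2 ratio was 1.07 in Nts-dominant cells (129 against 60.7 CPM) and -1.32 in Tph1-rich cells (22.0 against 56.5 CPM). The difference between the 2 classes was not tested, since each rests on 1 library a stage. The adult Nts cells were 88 with a median of 2092 UMIs, and the part of depth was not tested.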

How the results depend on the processing

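No paired analysis was possible because each group has 1 library. In the Neurog3-positive comparison, restriction to positive cells with a hormone or 2 granin UMIs gave 1 call, 1 higher (Pax4) and 0 lower, and under the other alternatives run for it 0 were higher and 2 or 3 lower, with Neurod1 and Pax6 among them. The same 8 factors were called higher at E17.5 than at E12.5 under all settings run. Between E17.5 and the adult in whole libraries, 2 factors in place of 1 were called lower (Neurog3 and Pax4) with every barcode, with doublets removed, with CPM averaged over cells and with mitochondrial and ribosomal UMIs left out. Between adult and irradiated whole libraries the single call was lost (0 called) with every barcode, doublets removed, a pseudocount of 10 CPM and without the cell with most UMIs, and under CPM averaged over cells 0 were higher and 1 lower (Isl1). In cells with at least 10000 UMIs, 1 factor, Rfx6, was called lower at E17.5 than at E12.5. For adult against E17.5 hormone-dominant cells, CPM averaged over cells gave 5 calls, 3 higher (Pax6, Rfx6, St18), and cells with at least 10000 UMIs also 5, with 3 higher (Isl1, Rfx6, St18). A pseudocount of 10 CPM or a minimum of 100 UMIs left 1 lower (Pax4), and equal weight to hormone classes gave 2 higher (Neurod1, Rfx6) and 1 lower, with Neurog3 turning to 0.0194 on the log2 scale. For irradiated against adult hormone-dominant cells, every barcode, the stricter cell filter, equal weight and cells with at least 10000 UMIs each left 1 call and 0 lower. There, 0 were higher under CPM averaged over cells, a pseudocount of 10 CPM, a minimum of 100 UMIs or without the cell with most UMIs, and a hormone threshold of 5% left 1 call, 0 higher and 1 lower (Rfx6). Neurog3 reversed in that comparison to -0.855 at the 5% threshold and to -0.60 without the cell with most UMIs. The causes were not tested, other than that the last setting removes 1 cell per gene and library. Of 35 library levels with enough UMIs, 21 moved over 1.5-fold when CPM was averaged over cells and 12 in cells with at least 10000 UMIs. Depth limits the adult library most, at a median of 3699.5 UMIs per cell.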
